A study of Mus musculus with 6 samples.

Results

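The 9 genes described here encode epithelial surface antigens and the matriptase system: Epcam, Cd24a, Lypd3 and Muc1 are the antigens, St14 (matriptase), Prss8 (prostasin) and Prss22 (tryptase epsilon) are serine proteases, and Spint1 and Spint2 are Kunitz inhibitors. They were picked by symbol from the 43548 genes of the mRNA sequencing table of Met-1 TripZ-200c cells, partly because their level rose with doxycycline (Dox). Their difference with Dox is therefore given as a description and without a test. Met-1 is a mouse mammary carcinoma line of FVB/nJ background established from an advanced tumor of the MMTV-PyMT mouse, in which a mammary tumor virus promoter drives the polyoma middle T oncogene. All 6 libraries came from a single clone that carries a lentiviral TripZ-RFP vector with the precursor of miR-200c, and the clone had been sorted for cells without leaky expression and with intermediate RFP. The cultures received vehicle (diH2O, the 3 libraries without Dox) or 1 µg/mL Dox (with Dox, 3 libraries) for 48 h. Libraries of cells with an empty vector were not analysed here, so an effect of Dox itself and an effect of miR-200c cannot be told apart.

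Matriptase is a protease anchored in the membrane of epithelial cells, where it activates prostasin, cleaves EpCAM and can cut the protease-activated receptor PAR2. The Kunitz inhibitors HAI-1 (Spint1) and HAI-2 (Spint2) bind it and hold its activity in check. EpCAM is an adhesion molecule of simple epithelia and carcinomas, and it is commonly lost when carcinoma cells become mesenchymal. MiR-200c lowers the transcription factors ZEB1 and ZEB2 by pairing with sites in their mRNAs, and ZEB1 and ZEB2 bind E-box sequences in the promoters of epithelial genes.

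The mature miRNA that the vector encodes is shown first because its seed, bases 2 to 8 and in capitals, sets which mRNAs it can pair with. The sequence is that of RefSeq on GRCm38.p6, at chr6:124718324-124718346 on the minus strand.
miR-200c-3p: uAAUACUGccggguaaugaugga
The 7 letters that pair with this seed (CAGTATT, read on the mRNA strand) occurred 0 times in the longest annotated 3′ UTR of each of the 9 genes, and these UTRs were between 283 bases (Muc1) and 1500 bases (Cd24a) long. They occurred 5 times in the 3′ UTR of Zeb1 (2401 bases) and 5 times in that of Zeb2 (4941 bases). Of 10798 genes tested that had an annotated 3′ UTR, with a median length of 1201 bases, 16.1% held at least 1 match. Absence of a match says only that these letters were not in the window searched.

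The promoters of Epcam, Spint2 and Muc1 are shown because they hold E-box letters. Capitals mark CACCTG, which reads CAGGTG on the other strand, and both forms were searched. Each window spans 250 bases before the RefSeq transcription start and 50 bases after it on GRCm38.p6 and is written in the direction of the gene. The windows are chr17:87635729-87636028 on the plus strand for Epcam, chr7:29281928-29282227 on the minus strand for Spint2 and chr3:89228806-89229105 on the plus strand for Muc1.
Epcam promoter: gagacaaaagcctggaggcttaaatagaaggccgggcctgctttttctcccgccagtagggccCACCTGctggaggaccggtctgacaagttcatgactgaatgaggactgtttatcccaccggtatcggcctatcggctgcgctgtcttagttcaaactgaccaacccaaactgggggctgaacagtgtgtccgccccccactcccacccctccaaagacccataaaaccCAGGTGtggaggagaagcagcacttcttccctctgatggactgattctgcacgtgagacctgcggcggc
Spint2 promoter: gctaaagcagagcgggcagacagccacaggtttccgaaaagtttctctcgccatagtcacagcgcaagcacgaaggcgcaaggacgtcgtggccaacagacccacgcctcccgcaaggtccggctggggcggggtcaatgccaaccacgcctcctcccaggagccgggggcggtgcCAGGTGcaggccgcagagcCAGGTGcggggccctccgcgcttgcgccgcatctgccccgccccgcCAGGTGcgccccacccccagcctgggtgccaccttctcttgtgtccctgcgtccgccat
Muc1 promoter: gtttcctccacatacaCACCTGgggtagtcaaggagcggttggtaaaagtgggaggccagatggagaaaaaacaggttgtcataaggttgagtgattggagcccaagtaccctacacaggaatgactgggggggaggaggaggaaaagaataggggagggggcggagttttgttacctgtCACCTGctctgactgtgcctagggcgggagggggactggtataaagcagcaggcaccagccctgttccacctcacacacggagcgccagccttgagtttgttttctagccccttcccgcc
The Epcam window held 2 such E-boxes, which began at positions -187 and -19 relative to the start. The Spint2 window held 3, beginning at -74, -55 and -9, and the Muc1 window held 2, beginning at -234 and -70. The windows of Spint1 and Lypd3 held 0. Among 32851 RefSeq promoters of the same length, 20.2% held at least 1 of these letters, 2.88% held at least 2 and 0.365% held at least 3. St14, Prss8, Prss22 and Cd24a were not matched, so 5 of the 9 genes were searched. A match is a description of the letters and not a measured binding site. Epcam and Spint2 stood higher with Dox, Muc1 had overlapping groups at a depth where a moderate difference was not detectable, and Lypd3 stood higher with a window that held 0. A relation between these letters and the levels was not tested.

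The expression values are FPKM, fragments scaled to transcript length and to the mapped reads of the library, so levels of different genes can be set side by side. Each library's FPKM added up to 800267 to 815139, over 16867 to 18012 genes above 0. The table gives no read counts. The worth of 1 read was taken from genes with 1 transcript of over 600 bases that were above 0 in few libraries. Their values lay within 0.1 of a whole number of reads for 88.7% to 95.9% of the genes used. The step of 1 read was set on the same genes, so this share is not an independent check. From this step the depth was estimated as between 11700000 and 19000000 mapped reads per library, and the reads behind each value of the 9 genes were estimated with it. The groups were compared gene by gene with limma on log2(FPKM + 0.1) over the 12879 genes that averaged 1 FPKM or more. Of these, 909 (7.06%) were called higher with Dox and 1026 (7.97%) lower at a Benjamini-Hochberg adjusted p under 0.05. The libraries of a group come from a single clone, and whether they were parallel cultures or separate experiments is not settled here. These p-values therefore set the difference against the spread between libraries of that clone only. A permutation of 3 libraries against 3 cannot give a p below 0.1. The labels were checked on the targets of miR-200c. Zeb1 was 41.8 ± 0.682 FPKM (SD, n = 3) with vehicle and 21.2 ± 2.05 FPKM (SD, n = 3) with Dox (limma, log2 difference -0.98, adjusted p = 0.000362). Zeb2 was 29.3 ± 1.43 FPKM (SD, n = 3) with vehicle and 8.29 ± 0.661 FPKM (SD, n = 3) with Dox (limma, log2 difference -1.81, adjusted p = 4.48e-05).

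The 9 genes covered almost the whole range of expression and did not move together. With Dox, 5 of them (Epcam, Lypd3, Spint2, St14 and Prss8) were above their level without Dox in every library, Cd24a was below it in every library, and Spint1, Prss22 and Muc1 had overlapping groups. Among 20509 genes above 0 in any library and with all 6 values, 12.8% had all 3 values with Dox above all 3 without, and 12.8% had them below. Since the genes were chosen partly for this difference, nothing is read from that comparison. A mean of at least 1 FPKM was reached by 4 of the 9 genes, Cd24a, Spint2, Lypd3 and Epcam. Epcam was the nearest above that filter with a mean over the 6 libraries of 2.09 FPKM, and Muc1 was the nearest below it with 0.325 FPKM. Epcam passed only through its level with Dox.

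**Figure D1:**
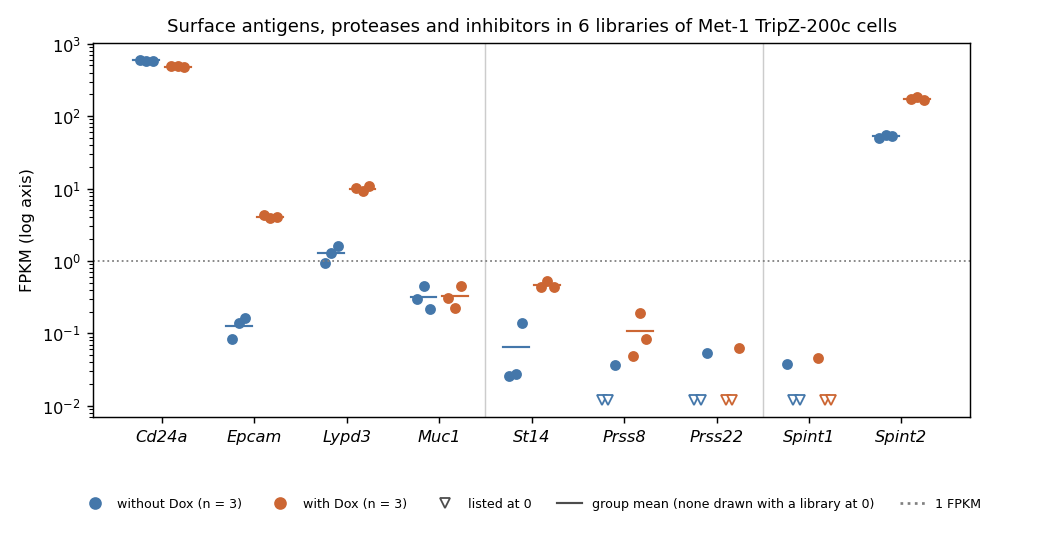
FPKM on a log axis of the 9 genes in each of the 6 libraries, with the surface antigens on the left, the serine proteases in the middle and the Kunitz inhibitors on the right. Points are libraries without Dox (blue) and with Dox (orange), short lines are group means, open triangles are libraries listed at 0 and the dotted line is 1 FPKM. Epcam moved from between 0.0844 and 0.161 FPKM to between 3.88 and 4.31 FPKM, while Cd24a stood between 470 and 601 FPKM in all 6 libraries.

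Among the surface antigens, Epcam had the largest ratio between the group means. With a pseudocount of 1 FPKM the log2 difference of Lypd3 (2.27) exceeded that of Epcam (2.16). Epcam (ENSMUSG00000045394) lies on chromosome 17 of GRCm38 from 87635979 to 87651129 on the plus strand and has 4 coding transcripts. Its level was 0.0844, 0.137 and 0.161 FPKM in the libraries without Dox and 4.31, 3.88 and 3.98 FPKM in those with Dox. The groups were far apart, and the lowest library with Dox was above the highest without. The mean was 0.128 ± 0.0394 FPKM (SD, n = 3) with vehicle and 4.06 ± 0.225 FPKM (SD, n = 3) with Dox, a ratio of 31.8. On the log2(FPKM + 0.1) scale, which understates the change of low genes, the difference was 4.2 (standard error 0.268). The ratio rests on few reads without Dox, an estimated 2.0, 3.0 and 4.9, against 99.2, 135.9 and 104.6 with Dox, and it lay between 27.2 and 36.6 when each library was left out in turn. In the order of the 20513 genes above 0 in any library, the mean of Epcam was higher than that of 22.6% of them without Dox and 46.9% with Dox.

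Lypd3, a GPI-anchored protein of the Ly6/uPAR family that is also called C4.4A, is found on stratified epithelia. The gene (ENSMUSG00000057454) lies on chromosome 7 from 24636550 to 24641118 on the plus strand. It was at 0.927, 1.30 and 1.63 FPKM in the vehicle libraries and at 10.1, 9.12 and 10.7 FPKM with Dox. All libraries with Dox were above all without, by more than the spread within either group. The means were 1.29 ± 0.351 FPKM (SD, n = 3) and 9.96 ± 0.792 FPKM (SD, n = 3), a ratio of 7.74 with Dox to without and a log2 difference of 2.89 (standard error 0.22). The ratio lay between 6.79 and 8.93 when each library was left out in turn. Exons of the antisense gene Gm26550, at a mean of 0.0652 FPKM over the 6 libraries, overlap 13.6% of the Lypd3 transcript, and since the sources used here do not say whether the counting used the strand, reads there cannot be told apart.

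Cd24a encodes a small GPI-anchored sialoglycoprotein, also called heat-stable antigen, that is used with other antigens to sort mammary epithelial cells. The gene (ENSMUSG00000047139) lies on chromosome 10 from 43578284 to 43584265 on the plus strand. It was at 601, 578 and 579 FPKM in the vehicle libraries and at 493, 489 and 470 FPKM with Dox. It was by far the most abundant of the 9 genes in every library and the only one that was lower with Dox in all 3 libraries. The means were 586 ± 12.7 FPKM (SD, n = 3) and 484 ± 12.2 FPKM (SD, n = 3), a ratio of 0.826 with Dox to without and a log2 difference of -0.28 (standard error 0.0313). A processed pseudogene, Gm6212, shares 11.9% of its longest transcript at 95% identity or more, so the level of Cd24a is uncertain to the extent that such reads were split.

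Muc1, a transmembrane mucin of the apical surface, was low in both groups. The gene (ENSMUSG00000042784) lies on chromosome 3 from 89229057 to 89233381 on the plus strand. It was at 0.296, 0.454 and 0.215 FPKM in the vehicle libraries and at 0.307, 0.222 and 0.454 FPKM with Dox. The groups overlapped over their full range, with means of 0.322 ± 0.121 FPKM (SD, n = 3) and 0.328 ± 0.117 FPKM (SD, n = 3). The log2 difference was 0.02 (standard error 0.363), and an estimated 7.3 to 13.2 reads stood behind each value, so a moderate difference was not detectable at this depth.

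Among the proteases, matriptase itself was low throughout and higher with Dox. St14 (ENSMUSG00000031995) lies on chromosome 9 from 31089402 to 31131853 on the minus strand. It was at 0.0254, 0.0277 and 0.140 FPKM in the vehicle libraries and at 0.437, 0.530 and 0.433 FPKM with Dox. All libraries with Dox were above all without, and the third library without Dox stood apart from the other two of its group. The means were 0.0643 ± 0.0654 FPKM (SD, n = 3) and 0.467 ± 0.0547 FPKM (SD, n = 3), a ratio of 7.26 and a log2 difference of 1.85 (standard error 0.345). An estimated 1.0, 1.0 and 7.1 reads stood behind the values without Dox and 16.7, 30.8 and 18.9 behind those with Dox. With the third vehicle library left out the ratio was 17.6, and with each of the others left out it lay between 5.57 and 7.52.

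Prss8 encodes prostasin, a GPI-anchored protease that acts together with matriptase and activates the epithelial sodium channel. The gene (ENSMUSG00000030800), on chromosome 7 from 127925716 to 127930104 on the minus strand, was listed at 0 in the first 2 libraries without Dox and at 0.0362 FPKM in the third. With Dox it was at 0.0487, 0.191 and 0.0849 FPKM. The groups did not overlap, but the values stand for an estimated 0, 0 and 1.0 reads without Dox and 1.0, 6.0 and 2.0 reads with Dox, so that the highest value without Dox and the lowest with Dox are 1 read each. No ratio is given. Exons of Kat8, at a mean of 20.9 FPKM, overlap 6.6% of the Prss8 transcript on the opposite strand, and their part in these reads was not tested.

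Prss22, on chromosome 17 from 23993534 to 23998100 on the minus strand (ENSMUSG00000045027), encodes a trypsin-like protease of airway epithelium. It was listed at 0 in 4 libraries, at 0.0535 FPKM in the third library without Dox and at 0.0628 FPKM in the third with Dox. Each of these values is an estimated 1.0 read, so Prss22 was at the limit of detection in both groups.

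The inhibitors stood at opposite ends of the FPKM scale. Spint2 (ENSMUSG00000074227), which encodes HAI-2 and lies on chromosome 7 from 29256323 to 29281912 on the minus strand, was at 50.3, 54.5 and 52.8 FPKM in the vehicle libraries and at 172, 183 and 167 FPKM with Dox. All libraries with Dox were far above all without. The means were 52.5 ± 2.13 FPKM (SD, n = 3) and 174 ± 8.07 FPKM (SD, n = 3), a ratio of 3.31 and a log2 difference of 1.72 (standard error 0.0474). It rested on an estimated 756.6 to 1038.8 reads per library without Dox and 2555.1 to 4115.6 with Dox, and the ratio lay between 3.23 and 3.38 when each library was left out in turn. Spint2 was higher than 83.5% of the 20513 genes without Dox and higher than 95.9% with Dox.

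Spint1 (ENSMUSG00000027315), which encodes HAI-1, lies on chromosome 2 from 119237362 to 119249527 on the plus strand. It was listed at 0 in 4 libraries, at 0.0374 FPKM in the first library without Dox and at 0.0459 FPKM in the first with Dox. These values are an estimated 1.0 and 1.2 reads. At this depth Spint1 was not detected above a single read in any library, whereas Spint2 was among the more abundant mRNAs.

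**Figure D2:**
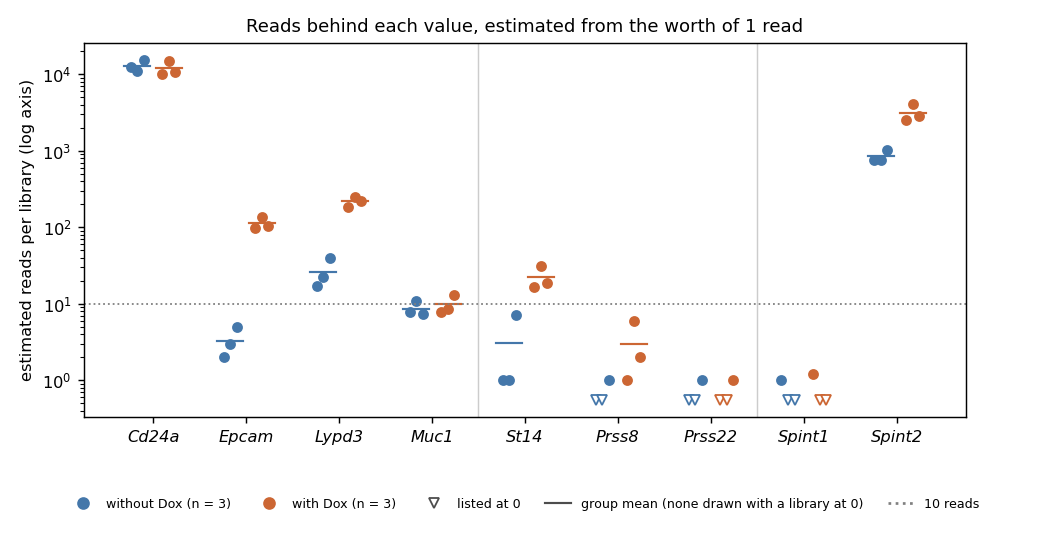
Estimated reads behind the FPKM of each of the 9 genes in each library, from the worth of 1 read in that library, on a log axis, with libraries without Dox in blue, libraries with Dox in orange open triangles for libraries listed at 0, short lines for group means and a dotted line at 10 reads. Cd24a and Spint2 rest on 756.6 reads or more in every library, whereas Prss8, Prss22 and Spint1 rest on between 0 and 6.0.

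Since FPKM is scaled to length, the levels were also set against each other within each library. Without Dox the order of the means was Cd24a, Spint2, Lypd3, Muc1, Epcam and St14, and the ranges of Epcam and St14 overlapped. With Dox it was Cd24a, Spint2, Lypd3, Epcam, St14 and Muc1, and the ranges of St14 and Muc1 overlapped. Epcam thus passed Muc1 in level with Dox. Prss8, Prss22 and Spint1 were at the bottom in both groups and rested on too few reads to be ordered.

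The inhibitor Spint2 exceeded its target St14 by a factor of 1984, 1970 and 377 in the libraries without Dox and 394, 345 and 385 in those with Dox, as ratios of FPKM. The factors of 1984 and 1970 rest on an estimated 1.0 read of St14 each, so they are very imprecise. The third library without Dox, in which St14 was highest for its group, lay among the ratios of the libraries with Dox. The ratio of group means was 817 without Dox, or 1977 when that library was left out, and 373 with Dox. Cd24a exceeded Epcam by a factor of 7118, 4208 and 3590 without Dox and 114, 126 and 118 with Dox. The factors without Dox rest on an estimated 2.0, 3.0 and 4.9 reads of Epcam and are imprecise as well. Of the summed FPKM of the 9 genes, Cd24a made up 92.1%, 91.1% and 91.3% without Dox and 72.4%, 71.3% and 72.1% with Dox. Together Cd24a and Spint2 made up 99.6% to 99.8% without Dox and 97.6% to 98.0% with Dox. The other 7 genes summed to 1.37, 1.92 and 2.23 FPKM without Dox and to 15.2, 13.9 and 15.7 FPKM with Dox. Most of this was Lypd3 in both groups, followed by Muc1 without Dox and by Epcam with Dox.

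The genes whose profile over the 6 libraries was most like that of Epcam and of St14 were found among 12856 genes by the root mean square difference of the log2(FPKM + 0.1) profiles, each centred on its mean without Dox. For Epcam they were Fgfbp1 (difference 0.398), which encodes a carrier of fibroblast growth factors, the polarity gene Crb3 (0.570) and the pseudogene Gm15065 (0.570). Fgfbp1 was at 2.30 FPKM without Dox and 30.9 FPKM with Dox on average. Crb3 was listed at 0 in the 3 libraries without Dox and was at 4.31, 2.60 and 2.06 FPKM with Dox. Gm15065 shares 98.9% of its sequence with Cop1, so its value is uncertain. For St14 they were 5830416P10Rik (0.213), with means of 2.54 and 10.3 FPKM, Btn1a1 (0.224), which encodes butyrophilin of the milk fat globule, with 3.88 and 13.8 FPKM, and the RNA-binding protein gene Rbm47 (0.251), with 1.67 and 6.27 FPKM. The pseudocount shrinks the differences of low genes most, so likeness on this scale is not likeness in the ratio of means. St14, at means of 0.0643 and 0.467 FPKM, had a ratio of 7.26. With the centring used, the measure mainly follows the shift with Dox.

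The wider pathway was followed in 8 lists of genes other than the 9, which were compared with the background of 7.06% higher and 7.97% lower over all genes tested and with the median log2 difference of all genes of 0.00. Of 24 other membrane serine proteases in the table, 14 were listed at 0 in all libraries and 10 were below 1 FPKM, so 0 entered the main comparison. In the limma fit without the filter, the lowest adjusted p of the 10 was 0.098, that of Tmprss11f. Tmprss11f was lower with Dox, with means of 0.375 FPKM without and 0.126 FPKM with Dox. Their FPKM summed to between 0.410 and 1.25 without Dox and between 0.484 and 1.49 with Dox. With Dox, St14 alone was at 0.433 to 0.530 FPKM.

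Of the proteins that matriptase or prostasin cleaves or acts through, and their receptors, 17 were in the table and 6 were tested, of which 3 rose, 0 fell and 3 did not pass. The list's median log2 difference was 0.19. F2rl1, which encodes PAR2, was at 6.66, 5.44 and 7.64 FPKM in the vehicle libraries and 28.7, 31.1 and 31.8 FPKM with Dox. All libraries with Dox were far above those without (limma, log2 difference 2.21, standard error 0.125, adjusted p = 0.000111), and it passed under 17 of 17 alternatives. Met, the receptor of hepatocyte growth factor, rose from 66.3 to 77.1 FPKM (limma, log2 difference 0.22, adjusted p = 0.0422), and Plaur, the urokinase receptor, from 103 to 114 FPKM (log2 difference 0.16, adjusted p = 0.039). These small changes passed under only 5 and 6 of the 17 alternatives. Hgf was below the filter with means of 0.0404 and 0.0643 FPKM, and Scnn1a, an epithelial sodium channel subunit, with 0.455 and 0.627 FPKM.

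Of 30 secreted serine proteases, 8 were tested, of which 3 rose and 0 fell, with a median log2 difference of 0.16. Klk10 was at 15.6, 17 and 15.4 FPKM in the vehicle libraries and 26.9, 26.8 and 29.0 FPKM with Dox (limma, log2 difference 0.78, standard error 0.0658, adjusted p = 0.000566). Klk8 rose from 0.618 ± 0.229 to 2.16 ± 0.765 FPKM (SD, n = 3; limma, log2 difference 1.65, adjusted p = 0.039). It passed under 8 of 16 alternatives, and 28.9% of its transcript is shared with other genes. Klk8 also passed the filter of 1 FPKM only through its level with Dox, so its call among the 3 is uncertain. The abundant Htra1 rose from 871 to 956 FPKM (limma, log2 difference 0.13, adjusted p = 0.027) and passed under 8 of 17 alternatives.

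Of 28 other serine protease inhibitors, 10 were tested, of which 1 rose and 2 fell, with a median log2 difference of -0.04. Wfdc2, a WAP-domain protein also called HE4, was at 212, 192 and 195 FPKM in the vehicle libraries and 583, 567 and 560 FPKM with Dox. It was the 1 inhibitor of the list that was called higher (limma, log2 difference 1.51, standard error 0.0418, adjusted p = 8.23e-06). Serpine2, which inhibits thrombin and urokinase, was at 226, 233 and 238 FPKM in the vehicle libraries and 173, 173 and 161 FPKM with Dox, a fall (limma, log2 difference -0.46, adjusted p = 0.000657). Aplp2, a Kunitz-domain homolog of the amyloid precursor protein, fell from 252 to 225 FPKM (limma, log2 difference -0.16, adjusted p = 0.0106). Serpinb5, or maspin, was below the filter, at 0, 0.0361 and 0 FPKM in the vehicle libraries and 0.338, 0.335 and 0.783 FPKM with Dox.

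Of 23 partners of EpCAM and genes of its cleavage, 17 were tested, of which 4 rose and 1 fell, with a median log2 difference of -0.02. The largest differences among the 5 called genes were those of Psen2, a subunit of the γ-secretase that cleaves EpCAM, from 4.68 to 6.78 FPKM (limma, log2 difference 0.53, adjusted p = 0.0404), and Fhl2, a partner of the intracellular EpCAM fragment, from 60.7 to 73.2 FPKM (limma, log2 difference 0.27, adjusted p = 0.00413). Bace1 (limma, log2 difference 0.18, adjusted p = 0.0374) and Cldn3 (0.15, adjusted p = 0.0342) also rose, and Cd44, which encodes the hyaluronan receptor, fell (-0.15, adjusted p = 0.0208). Lef1, a transcription factor of the Wnt pathway, was at 1.51, 1.10 and 1.40 FPKM in the vehicle libraries and 0.785, 0.586 and 0.778 FPKM with Dox, with a log2 difference larger in size than that of Psen2 but not called (limma, -0.82, adjusted p = 0.15). Of the 5 called genes, only Fhl2 passed under more than 9 of the 17 alternatives, and 35.5% of the Bace1 transcript is shared with other genes. Cldn7, the claudin that binds EpCAM, was below the filter. It was at 0.965 FPKM in the first vehicle library and listed at 0 in the other two, and it was at 0.345, 0.292 and 0.154 FPKM with Dox, so the groups overlapped through a single library.

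Of 32 other Ly6/uPAR family genes and Agr genes, 5 were tested, of which 3 rose (Ly6e, Ly6a and Plaur, whose values are given with the matriptase substrates) and 1 fell, with a median log2 difference of 0.16. Ly6e was at 1384, 1374 and 1335 FPKM in the vehicle libraries and 2630, 2751 and 2669 FPKM with Dox (limma, log2 difference 0.98, standard error 0.0259, adjusted p = 8.21e-06). Ly6a, or Sca-1, rose from 103 to 141 FPKM (limma, log2 difference 0.45, adjusted p = 0.000559). Ly6c1 fell from 33.6 to 25.9 FPKM (limma, log2 difference -0.38, adjusted p = 0.0189), but 97.7% of its transcript is shared with other genes, so its call is uncertain.

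Of 19 other mucins and mucin-like genes, 5 were tested and limma called 0 at an adjusted p under 0.05. An unadjusted p under 0.05 was reached by 2 of the 5, and by 3761 of all 12879 genes tested, so nothing is read from these 2. The median log2 difference was -0.12. An unmoderated linear model per gene called 1 of the 5, and 1290 of all genes tested. Muc20, a mucin that binds the receptor Met, was below the filter at 0.0741, 0.121 and 0.0284 FPKM in the vehicle libraries and 1.41, 1.5 and 0.933 FPKM with Dox. In the fit without the filter its adjusted p from limma was 0.00642. Muc20 was named after its values were seen, and 17.2% of its transcript is shared with other genes, so this p is not read as a test.

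Of 24 other surface antigens of carcinoma or epithelial cells, 11 were tested, of which 4 rose and 1 fell, with a median log2 difference of 0.22. Itgb4, the integrin subunit of hemidesmosomes, was at 3.48, 4.45 and 3.48 FPKM in the vehicle libraries and 32.8, 35.0 and 32.2 FPKM with Dox (limma, log2 difference 3.11, standard error 0.111, adjusted p = 1.64e-05). Its partner Itga6 rose from 90.9 to 109 FPKM (limma, log2 difference 0.27, adjusted p = 0.00309). Msln, or mesothelin, rose from 96.5 ± 4.44 to 176 ± 11.3 FPKM (SD, n = 3; limma, log2 difference 0.87, adjusted p = 0.000213), and F11r, a tight junction adhesion molecule, from 104 to 137 FPKM (log2 difference 0.40, adjusted p = 0.011). Pvrl2, or nectin-2, fell from 52.6 to 45.7 FPKM (limma, log2 difference -0.20, adjusted p = 0.0475) and passed under 4 of 17 alternatives. Cdh1, which encodes E-cadherin, was below the filter with means of 0.0585 and 0.828 FPKM.

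**Figure D3:**
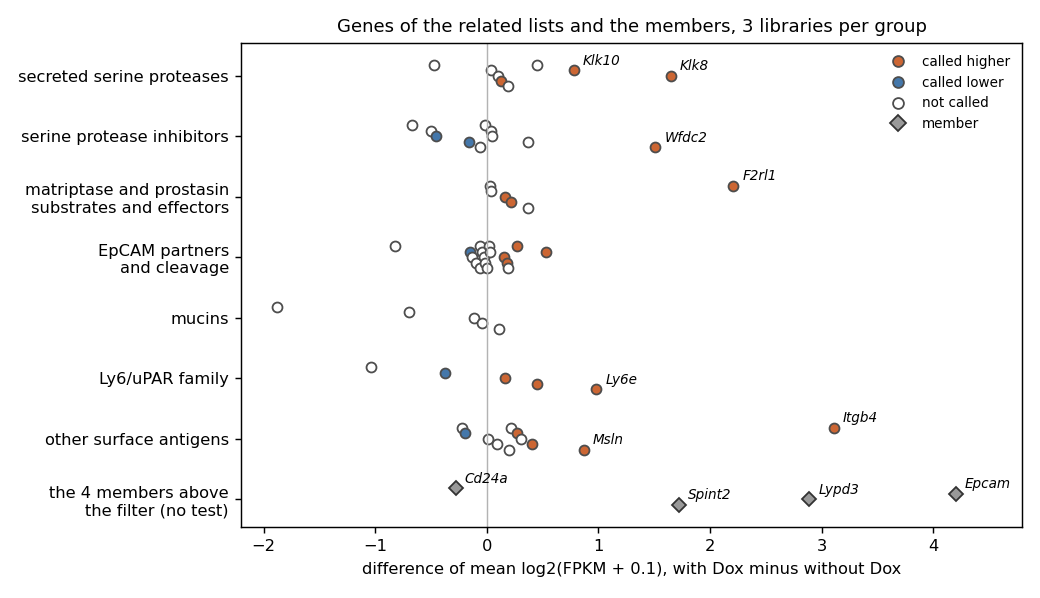
Difference of mean log2(FPKM + 0.1) with Dox minus without Dox for each gene that averaged 1 FPKM or more in 7 of the lists and, in the bottom row, for the 4 of the 9 genes above that filter (diamonds, without a test). Orange points were called higher and blue points lower by limma at an adjusted p under 0.05, and open points were not called. Itgb4 at 3.11 and F2rl1 at 2.21 lie farthest to the right among the list genes, and most others lie near 0.

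The labelled cell type was checked on marker lists. Of 10 luminal or carcinoma epithelial markers, Krt18, Krt7 and Gata3 were above the filter, Krt8 and Cdh1 were below 1 FPKM, and Krt19, Elf5, Csn2, Wap and Prlr were listed at 0 in all libraries. Their sum was 224 to 239 FPKM without Dox and 719 to 761 FPKM with Dox. The tested markers did not move together: Krt18 rose from 93.2 to 386 FPKM (limma, adjusted p = 3.61e-06) and Krt7 from 45.0 to 274 FPKM (adjusted p = 8.85e-07), whereas Gata3 fell from 92.2 to 82.5 FPKM (limma, log2 difference -0.16, adjusted p = 0.042) and passed under 5 of 17 alternatives. Of 6 basal markers Krt5 was at 0, and the sum was 1.48 to 2.15 FPKM without Dox and 1.94 to 2.21 FPKM with Dox. Of 12 leukocyte markers 5 were at 0 in all libraries, Cd3e among them, and Ptprc had means of 0.00897 and 0.0937 FPKM. Their sum was 32.0 to 40.0 FPKM without Dox and 39.8 to 43.3 FPKM with Dox, most of it Cd14, which rose from 21.4 to 29.1 FPKM (limma, log2 difference 0.44, adjusted p = 0.0171) and passed under 9 of 17 alternatives. The sum of 6 endothelial markers was 4.47 to 5.16 and 4.2 to 4.72 FPKM, and that of 6 fibroblast markers, of which Lum and Dpt were at 0, was 18.9 to 20.2 and 14.9 to 17.2 FPKM, most of it Pdgfra. Pdgfra fell from 18.6 to 15.5 FPKM (limma, log2 difference -0.27, adjusted p = 0.041) and passed under 6 of 17 alternatives. The part of these markers in the levels of the 9 genes was not tested. In these bulk libraries, fewer cells with a transcript and less RNA per cell cannot be told apart.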

How the data were processed

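mRNA of Met-1 TripZ-200c cells without and with Dox was measured in 3 libraries per group, grouped by the sample labels. The authors mapped single 50-base reads of stranded libraries with gSNAP to the mouse genome (GRCm38.p6 per the labels, with an FVB/NJ assembly also named in the methods) and deposited FPKM values from Cufflinks. Versions are not given in the sources used here. The group means, the fold score, the p-value and the q-value that the authors deposited for each gene were not used.

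Of 43611 rows, 63 with a repeated identifier were dropped, and for a repeated symbol the most abundant row was used. The placeholder 999999999 in 6 places in 4 genes was treated as missing. There were 0 unused columns of per-sample values. The 12879 genes that averaged 1 FPKM or more entered limma 3.58.1 (R 4.3.3) as log2(FPKM + 0.1) (trend, group as the only term, Benjamini-Hochberg). The procedure was tested on simulated data. Fits without the filter covered 20513 genes. The 9 genes, the lists and the naming rule were chosen with earlier results of these data known. The rule named the 9 genes, every called list gene, the 3 nearest profiles of Epcam and of St14, and Zeb1, Zeb2 and Cdh1. List genes below the filter, Lef1 and the markers were named after their values were seen. Shared sequence was found with BLAST 2.17.0 (95% identity over at least 50 bases). Estimated reads assume a fragment length of 200 bases and the longest coding transcript, so they are approximate. Coordinates are those of GENCODE on GRCm38, and protein sequences were not used here. Tables and plots were made with Python 3.11.15, numpy 2.4.6, pandas 2.3.3 and matplotlib 3.10.9. Alternatives were other pseudocounts, filters, normalizations, variance models, thresholds, an unmoderated linear model, a replicate block and the omission of each library.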

Additional observations from a re-analysis of the deposited data

How the results depend on the processing

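Depth limits the low genes: below about 0.2 FPKM a value rests on a few reads. The log2 differences of Epcam, St14, Spint2, Cd24a and Lypd3 kept their sign under the alternatives run, whereas that of Muc1, 0.02 with all libraries, ran from -0.18 to 0.24 when each library was left out in turn. With a pseudocount of 1 FPKM the log2 differences of Epcam, St14 and Lypd3 were 2.16, 0.46 and 2.27, and with 0.01 FPKM those of Epcam and St14 were 4.93 and 3.02. Of 12879 genes, 1935 were called, against 770 at an adjusted p under 0.01 and 452 with a change of at least 1.5-fold.

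The replicate numbers of the labels were added as a block, which called 1337 genes, 1269 of them also called without it. The deviations of same-numbered libraries correlated at 0.0287, 0.0359 and -0.00759 across genes, so the numbers were not taken to pair the libraries. The block left 1 matriptase substrate and 1 EpCAM partner, beside 2 secreted proteases, 4 inhibitors, 3 Ly6/uPAR genes and 6 other antigens. From here on, counts are given only for lists that moved clearly from the main fit. A list left out kept a count near that of the main fit. At an adjusted p under 0.01, 1 secreted protease, 1 substrate, 1 EpCAM partner, 2 Ly6/uPAR genes and 3 other antigens remained as counts, and with a change of at least 1.5-fold 1 inhibitor, 1 substrate, 0 EpCAM partners, 1 Ly6/uPAR gene and 2 other antigens. Without the filter on low values the counts were 1 secreted protease, 1 substrate and 1 mucin. Without the trend they were 1 substrate and 3 EpCAM partners. The unmoderated linear model gave 1 secreted protease, 1 substrate, 2 EpCAM partners, 1 mucin and 2 Ly6/uPAR genes, and median scaling gave 1 mucin. When each library was left out in turn, 1048 (without the third library with Dox) to 1359 genes were called, 1 to 2 secreted proteases, 1 to 3 substrates, 1 to 2 EpCAM partners, 2 to 3 Ly6/uPAR genes, and the ratio of Spint2 to St14 without Dox ran from 624 to 1977, the highest without the third library without Dox. Fewer libraries are by construction a smaller sample; otherwise the cause was not tested.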
